A study of Mus musculus with 35 samples.

Results

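Foot processes of podocytes are held in shape by actin, and 9 genes for regulators of that actin were followed through podocytes of mice with mutations in the LIM domains of the transcription factor Lmx1b. The genes were Synpo, Actn4, Inf2, Myo1e, Myh9, Arhgap24, Arhgdia, Ezr and Cttn. They were chosen by name, and all 9 were found by symbol among the 33292 genes of the deposited table. RNA sequencing was carried out on single mice, with 35 mice in 6 groups. The control mice, labelled WT, were Lmx1b+/lox according to the design of the study, while the knock-in mice were Lmx1b H77L/lox, with a substitution in the LIM-A domain, or Lmx1b C118F/lox, with a substitution in the LIM-B domain. All groups carried a podocyte-driven rtTA transgene, tetO::Cre and the mT/mG reporter, and all received doxycycline at 2 mg/ml in the drinking water for 7 days, so that the floxed allele lost its homeodomain exons in podocytes of controls as well. The controls therefore kept 1 intact allele, and the knock-in mice kept only the mutant allele. Mice were 7 to 10 weeks old and were injected every other day with bortezomib, a proteasome inhibitor, at 0.3 μg/g, or with its solvent DMSO. Each group held 6 mice, and 5 were in the Lmx1b C118F/lox group that received bortezomib. The transactivator is made in podocytes, and green fluorescent cells were collected by FACS.

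A foot process contains a bundle of long actin filaments with bound myosin and crosslinkers, surrounded by a branched network below the membrane. Small GTPases such as Rac1 and Cdc42 control the branching, and many inherited forms of focal segmental glomerulosclerosis and nephrotic syndrome change a protein of this system. Mutations in ACTN4, INF2, MYO1E, MYH9, ARHGAP24 and ARHGDIA have been described in patients with proteinuria. Synaptopodin, ezrin and cortactin are foot-process actin proteins that are less firmly tied to inherited disease.

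Positions are given on the mouse genome GRCm39, and Actn4 and Cttn share chromosome 7. All 9 are annotated as protein-coding. Actn4 (ENSMUSG00000054808) spans 28592672 to 28661839 on the minus strand of chromosome 7, Inf2 (ENSMUSG00000037679) spans 112555188 to 112581991 on the plus strand of chromosome 12, and Myh9 (ENSMUSG00000022443) spans 77644785 to 77726381 on the minus strand of chromosome 15. Arhgap24 (ENSMUSG00000057315) spans 102629213 to 103045803 on the plus strand of chromosome 5 and Myo1e (ENSMUSG00000032220) spans 70114632 to 70307048 on the plus strand of chromosome 9. Arhgdia (ENSMUSG00000025132) spans 120468929 to 120472469 on the minus strand of chromosome 11, Ezr (ENSMUSG00000052397) spans 7005440 to 7050611 on the minus strand of chromosome 17, and Cttn (ENSMUSG00000031078) spans 143989450 to 144024867 on the minus strand of chromosome 7. Inf2 overlaps no other annotated gene. The other 8 overlap between 1 and 5, among them Capn12 on the opposite strand of Actn4 and Sytl3 on the opposite strand of Ezr.

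The 250 bases before the start of the Ensembl canonical transcript are shown for Actn4, Inf2, Myh9 and Arhgap24, since these genes moved in both knock-in lines under at least 1 treatment, as described below. They come from chr7:28661840-28662089 on the minus strand, chr12:112554938-112555187 on the plus strand, chr15:77726382-77726631 on the minus strand and chr5:102628963-102629212 on the plus strand of GRCm39, and each is written 5′ to 3′ along its gene with motif matches in capitals.
Actn4: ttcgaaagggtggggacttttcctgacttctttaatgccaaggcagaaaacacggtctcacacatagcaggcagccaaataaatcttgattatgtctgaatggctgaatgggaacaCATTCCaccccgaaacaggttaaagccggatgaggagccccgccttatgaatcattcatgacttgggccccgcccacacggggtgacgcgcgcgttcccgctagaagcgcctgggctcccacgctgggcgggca
Inf2: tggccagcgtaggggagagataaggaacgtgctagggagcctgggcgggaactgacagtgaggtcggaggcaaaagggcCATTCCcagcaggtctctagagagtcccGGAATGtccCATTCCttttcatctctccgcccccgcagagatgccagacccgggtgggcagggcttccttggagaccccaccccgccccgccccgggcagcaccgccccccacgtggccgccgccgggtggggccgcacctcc
Myh9: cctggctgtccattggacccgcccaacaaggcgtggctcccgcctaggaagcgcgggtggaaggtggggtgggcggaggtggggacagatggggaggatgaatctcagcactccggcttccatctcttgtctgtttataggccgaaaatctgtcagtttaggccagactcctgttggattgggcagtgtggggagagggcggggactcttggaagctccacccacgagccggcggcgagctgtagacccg
Arhgap24: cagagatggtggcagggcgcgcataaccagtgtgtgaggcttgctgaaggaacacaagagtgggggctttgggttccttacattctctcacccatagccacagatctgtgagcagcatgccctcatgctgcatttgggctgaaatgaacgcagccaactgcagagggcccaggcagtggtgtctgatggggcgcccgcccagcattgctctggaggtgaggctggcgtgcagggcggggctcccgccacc
Motifs were searched on both strands. TAATTA, a core that many homeodomain proteins recognize, was absent from these windows in all 9 genes and present in 5.18% of the 21636 protein-coding promoters of the same length. CATTCC or its reverse complement, a core bound by TEAD factors, was present in 2 of the 9 genes and in 12.1% of all promoters. It occurred once in Actn4, at position -134 from the start, and 3 times in Inf2, at -171, -143 and -134. The CArG box, the core recognized by serum response factor, was found in Myo1e, at position -32, and in 1.41% of all promoters. These are matches of letters in a short window, and no binding was measured. The GC content of the windows was 55.2% in Actn4, 68.4% in Inf2, 62.4% in Myh9 and 61.2% in Arhgap24, against a median of 53.2% over all promoters.

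The deposited values are TPM, transcript shares that are corrected for gene length and scaled to the same total in each mouse. Reads recovered from the steps of the TPM values gave a depth of 5269029 to 24148758 reads per mouse, with the lowest depth in a bortezomib-treated Lmx1b C118F/lox mouse. Inf2, the member with the lowest level, had at least 263 reads in every mouse, and Cttn had at least 875. The podocyte markers Podxl and Wt1 reached medians of 7322 and 226 TPM in DMSO-treated controls. They reached 3469 and 129 TPM in the Lmx1b H77L/lox line and 2345 and 120.4 TPM in the Lmx1b C118F/lox line. By these markers the podocyte label was met in every group. Of 12 podocyte markers, 9 were called lower and 0 higher in either DMSO-treated knock-in line. Over all genes tested, 22.4% and 16.6% were called lower, respectively. In controls and the same lines, median Cdkn1c was 4970, 240 and 222 TPM. Median Cldn5 was 1814, 79.8 and 59.2 TPM, while Clic5 had higher medians in the lines (1957, 2511 and 2269 TPM). In these bulk samples, fewer cells of a type and less RNA per cell cannot be told apart. Of 10 endothelial markers, only Ehd3 passed the filter on low values in the DMSO-treated groups. Of 10 leukocyte markers, Ptprc, a pan-leukocyte marker, was listed at 0 in 24 of 35 mice, but Lyz2 and Cd68 were present. Median Lyz2 was 12.2 TPM in DMSO-treated controls, 0.22 TPM in Lmx1b H77L/lox and 0.45 TPM in the Lmx1b C118F/lox line, and its highest value was 285 TPM. Median Cd68 was 1.25, 3.23 and 10.2 TPM, respectively, and 0.46, 1.30 and 5.98 TPM under bortezomib. The summed mesangial and smooth muscle markers ranged from 601 to 988 TPM in the DMSO-treated Lmx1b H77L/lox group and from 636 to 3262 TPM in the Lmx1b C118F/lox line, against 40.2 to 177 TPM in controls. Of these 10 markers, Des (median, 478 TPM in Lmx1b H77L/lox and 556 TPM in the Lmx1b C118F/lox line) and Pdgfrb (196 and 125 TPM) led. Acta2 had medians of 3.79 TPM in DMSO-treated controls and 15.3 and 41.6 TPM in the lines, and the medians of Fhl2, Cspg4 and Myh11 were also higher in both. Itga8 and Gata3, used as mesangial markers, had medians of at most 0.36 TPM in all groups, and the median of Agtr1a was lower in both lines. Of 6 markers tested, 4 were called higher and 0 lower in each line. The summed tubule markers ran from 41.4 to 2282 TPM in DMSO-treated controls (median, 153 TPM), from 16.8 to 952 TPM in Lmx1b H77L/lox mice (median, 21.6 TPM) and from 8.12 to 316 TPM in the Lmx1b C118F/lox line (median, 33.4 TPM). The summed parietal epithelial markers ran from 123 to 254 TPM in DMSO-treated controls (median, 154 TPM). They ran from 191 to 370 TPM in Lmx1b H77L/lox mice (median, 218 TPM) and from 170 to 321 TPM in the Lmx1b C118F/lox line (median, 208 TPM). Whether cells of these types had a part in the results was not tested.

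Certain mice stood apart and are given separately where a result rests on them. Mice are numbered here within each group by their order in the series, and equal numbers in different groups mark no pairing. Mouse 1 of the DMSO-treated Lmx1b C118F/lox group had the mesangial sum of 3262 TPM, with the renin gene Ren1 at up to 2166 TPM, an endothelial sum of 183 TPM and the lowest podocyte sum (7339 TPM) of its group. Mouse 1 of the DMSO-treated controls had the highest leukocyte sum (358 TPM), mesangial sum (177 TPM) and endothelial sum (76.8 TPM) of its group. Mouse 2 of the DMSO-treated controls had the tubule sum of 2282 TPM, and 4.53% of its TPM came from mitochondrial genes, the highest share of all mice. Among the fold change calls for members without this mouse, only that of Ezr in DMSO-treated Lmx1b H77L/lox mice was lost, as given below.

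In control podocytes the 9 genes covered a wide range of levels. Synpo was the most abundant, with a mean of 2507 ± 523 TPM (SD, n = 6), and ranked 33rd among 20014 genes detected in DMSO-treated controls. Ezr (1060 ± 181 TPM), Arhgdia (1031 ± 102 TPM) and Actn4 (833 ± 201 TPM) followed, of which Ezr and Arhgdia differed by less than their spread. Myo1e stood at 541 ± 168 TPM and Arhgap24 at 402 ± 58.0 TPM, again with overlapping mice. Myh9 (134 ± 46.2 TPM) and Cttn (131 ± 10.3 TPM) were indistinguishable from each other, and Inf2 was lowest with 18.3 ± 4.72 TPM. The spread between control mice was smallest for Cttn, with a coefficient of variation of 7.85%, and largest for Myh9, with 34.6%, while the median over genes above 10 TPM was 15.2%. The plot of TPM by mouse shows all groups side by side.

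**Figure D1:**
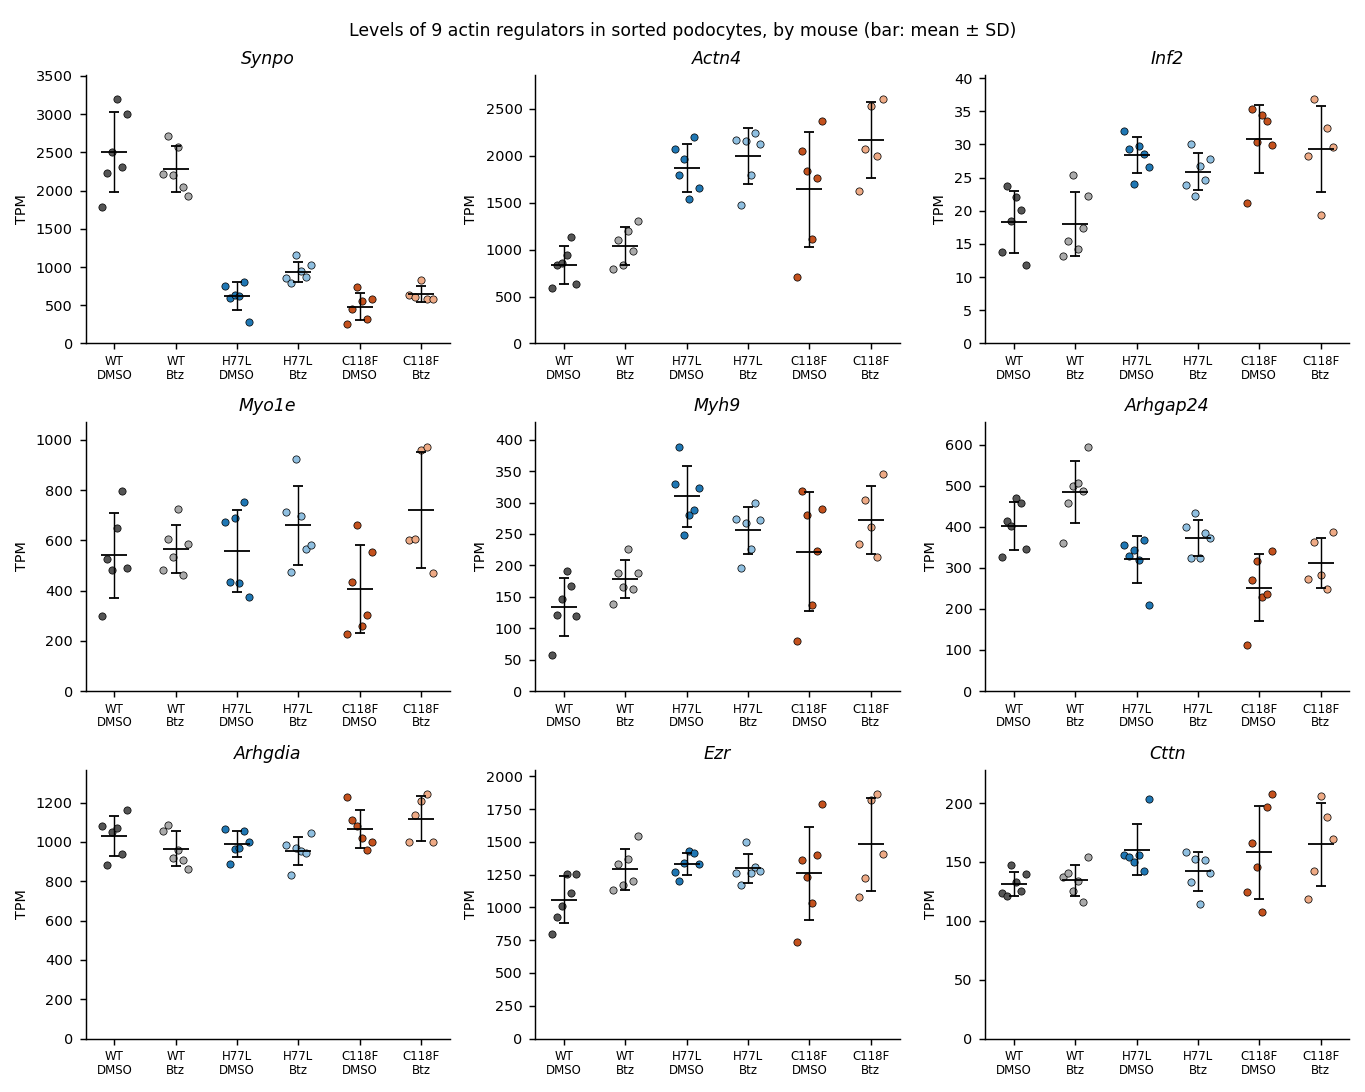
TPM (y axis, from 0) of each of the 9 genes in each of the 35 mice, by genotype and treatment (x axis); points are mice, and bars give the mean ± SD. Synpo is below every control in every knock-in mouse, Actn4 lies above all controls of the same treatment in every knock-in group except DMSO-treated Lmx1b C118F/lox, and Arhgdia stays between 832 and 1243 TPM throughout.

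Synaptopodin, the product of Synpo, binds actin and alpha-actinin in the foot process and is a marker of differentiated podocytes. Its gene had the largest change among the members. DMSO-treated controls ranged from 1784 to 3199 TPM with a median of 2409 TPM. Lmx1b H77L/lox mice ranged from 286 to 805 TPM (median, 631 TPM) and Lmx1b C118F/lox mice from 257 to 745 TPM (median, 501 TPM), and no knock-in mouse reached the lowest control. The log2 fold change was -2.06 (standard error, SE, 0.22, adjusted p = 4.89e-06) in Lmx1b H77L/lox mice, a 4.18-fold lower level, and -2.44 (SE 0.23, adjusted p = 2.74e-06) in the Lmx1b C118F/lox line, a 5.42-fold lower level. Synpo was the only member that also passed the stricter cutoffs of the study, an adjusted p under 0.001 and a log2 fold change beyond 2, which 2.17% of 10964 genes passed in Lmx1b H77L/lox mice and 2.27% of 10899 genes in the Lmx1b C118F/lox line. Without mouse 1 of the control and Lmx1b C118F/lox groups, these values were -2.16 and -2.37.

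Actn4 moved in the opposite direction. It encodes alpha-actinin-4, which crosslinks actin filaments into bundles, and it rose in both lines. Controls ranged from 592 to 1137 TPM (median, 842 TPM) and Lmx1b H77L/lox mice from 1544 to 2204 TPM (median, 1879 TPM), without overlap. Lmx1b C118F/lox mice ranged more widely, from 711 to 2369 TPM (median, 1800 TPM), in that mouse 1 at 711 TPM lay within the controls and mouse 4 at 1114 TPM lay just below the highest control. The log2 fold change was 1.19 (SE 0.15, adjusted p = 2.95e-05) in Lmx1b H77L/lox mice and 0.90 (SE 0.26, adjusted p = 0.0176) in the Lmx1b C118F/lox line, and it became 1.03 (adjusted p = 0.00194) in the latter without mouse 1 of both groups. The call in the Lmx1b C118F/lox line was lost without a filter on low values (adjusted p = 0.0581) and with the number in the sample title as a covariate (adjusted p = 0.105), a number whose meaning the labels do not give. Both DMSO-treated knock-in groups reached higher title numbers than their controls, as did the bortezomib-treated Lmx1b C118F/lox group. The numbers overlapped, and genotype and title number cannot be fully told apart. The mean TPM of Synpo exceeded that of Actn4 in controls, and this order was turned round in both knock-in lines.

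Inf2 encodes a formin that nucleates and severs actin filaments, and Cttn encodes cortactin, which stabilizes branches made by the Arp2/3 complex. Inf2 was raised in both lines from a low level. Controls ranged from 11.8 to 23.8 TPM (median, 19.3 TPM), Lmx1b H77L/lox mice from 24.1 to 32.1 TPM (median, 28.9 TPM) and Lmx1b C118F/lox mice from 21.2 to 35.4 TPM (median, 31.98 TPM). The Lmx1b H77L/lox mice just cleared the highest control, and mouse 1 of the Lmx1b C118F/lox group did not. For Inf2 the log2 fold change was 0.64 (SE 0.16, adjusted p = 0.00419) and 0.74 (SE 0.18, adjusted p = 0.00689), respectively. Cttn changed less. It ranged from 121 to 147 TPM in controls, from 142 to 203 TPM in Lmx1b H77L/lox mice and from 108 to 208 TPM in the Lmx1b C118F/lox line, all overlapping. For Cttn, the log2 fold change of 0.28 (SE 0.09, adjusted p = 0.0219) in Lmx1b H77L/lox mice did not hold with all 35 mice in one fit (adjusted p = 0.083), with the number in the sample title as a covariate (adjusted p = 0.234) or with voom on recovered reads (adjusted p = 0.0506), and that of 0.23 (SE 0.15, adjusted p = 0.256) in the Lmx1b C118F/lox line did not pass.

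Among the motors, Myh9 and Myo1e behaved differently. Myh9 encodes the heavy chain of non-muscle myosin IIA, the motor of contractile bundles. It ranged from 57.8 to 191 TPM in controls (median, 133 TPM) and from 249 to 389 TPM in Lmx1b H77L/lox mice (median, 306 TPM), without overlap. In Lmx1b C118F/lox mice the values ran from 79.9 to 319 TPM (median, 252 TPM), with mice 1 and 4 inside the control range. The rise in Lmx1b H77L/lox mice was 1.28 on the log2 scale (SE 0.22, adjusted p = 0.000376), or 1.06 (adjusted p = 4.81e-05) without control mouse 1, the lowest control. The value in the Lmx1b C118F/lox line, 0.67 (SE 0.34, adjusted p = 0.149), did not pass, but Myh9 did at 0.93 (adjusted p = 0.0198) without mouse 1 of that group and at 0.71 (adjusted p = 0.0236) without mouse 1 of both groups. With all 35 mice in one fit Myh9 passed as well (adjusted p = 0.0288), as it did with weights for single mice (adjusted p = 0.0293). Myo1e, a membrane-bound class I myosin, did not pass in either line. Its ranges were 298 to 795 TPM in controls, 373 to 753 TPM in Lmx1b H77L/lox mice and 226 to 660 TPM in the Lmx1b C118F/lox line, with log2 fold changes of 0.05 (95% interval, -0.43 to 0.54) and -0.46 (95% interval, -1.04 to 0.12).

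Of the GTPase regulators, Arhgap24 was lower in the Lmx1b C118F/lox line and Arhgdia was close to the controls. Arhgap24 encodes a GTPase-activating protein that switches off Rac1 and Cdc42. Controls ranged from 325 to 469 TPM (median, 408 TPM), Lmx1b H77L/lox mice from 209 to 369 TPM (median, 335 TPM) and Lmx1b C118F/lox mice from 112 to 342 TPM (median, 253 TPM), and the groups overlapped. A log2 fold change of -0.75 (SE 0.22, adjusted p = 0.0184) in the Lmx1b C118F/lox line passed, and Arhgap24 also passed at -0.59 (adjusted p = 0.00578) without mouse 1 of both groups. It did not pass without a filter on low values (adjusted p = 0.0558). The value of -0.34 (SE 0.14, adjusted p = 0.058) in Lmx1b H77L/lox mice did not pass, although Arhgap24 did at -0.39 (adjusted p = 0.034) without control mouse 1, at -0.38 without mouse 5 of its own group (adjusted p = 0.0458) and with voom (adjusted p = 0.0277). It was smaller for Arhgap24 without mouse 6 of the Lmx1b H77L/lox group, at -0.22 (adjusted p = 0.102), and with the title number as a covariate, at -0.19 (adjusted p = 0.44). Arhgdia encodes an inhibitor that keeps GTPases such as Rac1 in the cytosol. Across all 35 mice it stayed between 832 and 1243 TPM, and its log2 fold changes under DMSO were -0.06 (95% interval, -0.25 to 0.14) in Lmx1b H77L/lox and 0.05 (95% interval, -0.17 to 0.27) in the Lmx1b C118F/lox line.

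Ezr encodes ezrin, which ties cortical actin to membrane proteins such as podocalyxin. Its values ranged from 799 to 1254 TPM in controls, from 1202 to 1432 TPM in Lmx1b H77L/lox mice and from 733 to 1790 TPM in the Lmx1b C118F/lox line. The log2 fold change of 0.34 (SE 0.12, adjusted p = 0.0253) in Lmx1b H77L/lox mice passed narrowly. Ezr did not pass without control mouse 1 (0.27, adjusted p = 0.0511), without control mouse 2 (0.31, adjusted p = 0.0512) or without mouse 4 of the Lmx1b H77L/lox group (0.32, adjusted p = 0.0533), nor without a filter, with all mice in one fit or with the number in the sample title as a covariate (adjusted p of 0.0617 to 0.0792). In Lmx1b C118F/lox mice the value was 0.21 (SE 0.19, adjusted p = 0.423), with mouse 1 the lowest of all.

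Under DMSO, 5 of 9 members were thus higher and 1 was lower in the Lmx1b H77L/lox line, where 22.4% of all genes tested were higher and 22.4% were lower. In the Lmx1b C118F/lox line, 2 of 9 were higher and 2 lower, against 13.7% and 16.6% of all genes. The mice of the compared groups did not overlap for 4 of 9 members in Lmx1b H77L/lox mice and for 1 in the Lmx1b C118F/lox line, where 21.1% and 13.7% of all genes did not overlap. The median log2 fold change of the 9 members was 0.28 in the Lmx1b H77L/lox line and 0.21 in the Lmx1b C118F/lox line, against -0.01 and -0.06 over all genes. All 9 passed the filter on low values in every comparison, since each was above 1 TPM in all 35 mice.

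Bortezomib-treated mice were compared with each other in the same way. Synpo ranged from 1932 to 2720 TPM in controls (median, 2210 TPM) and from 788 to 1152 TPM in Lmx1b H77L/lox mice (median, 905 TPM), and the 5 Lmx1b C118F/lox mice had 637, 609, 836, 588 and 578 TPM. No knock-in mouse reached the lowest control. Synpo had a log2 fold change of -1.28 (SE 0.11, adjusted p = 4.2e-07) in Lmx1b H77L/lox mice and -1.81 (SE 0.13, adjusted p = 1.74e-07) in the Lmx1b C118F/lox line.

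Under bortezomib, Actn4 was higher in every knock-in mouse than in every control. It ranged from 792 to 1308 TPM in controls and from 1478 to 2238 TPM in Lmx1b H77L/lox mice, and the Lmx1b C118F/lox mice had 1621, 2074, 2531, 1994 and 2605 TPM. The log2 fold changes were 0.95 (SE 0.14, adjusted p = 8.74e-05) and 1.06 (SE 0.16, adjusted p = 0.000196). Myh9 passed in both lines under bortezomib, at 0.52 (adjusted p = 0.00483) and 0.60 (adjusted p = 0.0062). Controls had 139 to 226 TPM, Lmx1b H77L/lox mice 195 to 299 TPM and Lmx1b C118F/lox mice 235, 305, 260, 213 and 346 TPM, so the groups overlapped at their edges. With all 35 mice in one fit Myh9 did not pass in either line (adjusted p = 0.138 and 0.0749), and with the number in the sample title as a covariate it did not pass in the Lmx1b C118F/lox line (adjusted p = 0.0574).

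Inf2 and Arhgap24 also passed in both lines after bortezomib. Inf2 ranged from 13.1 to 25.4 TPM in controls and from 22.2 to 30.1 TPM in Lmx1b H77L/lox mice, and the Lmx1b C118F/lox mice had 28.3, 36.8, 19.3, 32.4 and 29.6 TPM. Its log2 fold changes were 0.53 (adjusted p = 0.017) and 0.68 (adjusted p = 0.0166), which became adjusted p-values of 0.0542 and 0.111 with the number in the sample title as a covariate. Arhgap24 fell, with 361 to 596 TPM in controls, 324 to 435 TPM in Lmx1b H77L/lox mice and 273, 363, 283, 250 and 388 TPM in the Lmx1b C118F/lox line. Its log2 fold changes were -0.37 (adjusted p = 0.024) and -0.64 (adjusted p = 0.00371). In the Lmx1b H77L/lox line Arhgap24 did not pass without mouse 2 (adjusted p = 0.0571) or mouse 4 (adjusted p = 0.0587) of that group, without a filter (adjusted p = 0.061) or with all 35 mice in one fit (adjusted p = 0.153). Myo1e, Arhgdia, Ezr and Cttn did not pass in either line under bortezomib, with log2 fold changes between -0.02 and 0.31. For Ezr the difference in Lmx1b H77L/lox mice was 0.01 (95% interval, -0.19 to 0.21), and for Cttn it was 0.08 (95% interval, -0.12 to 0.27). In the other line Cttn, at 0.27 (adjusted p = 0.15), passed without mouse 1 of that group (0.38, adjusted p = 0.0271) and with weights for single mice (adjusted p = 0.0201), as did Arhgdia with such weights (adjusted p = 0.0438).

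In each line, 3 of 9 members were thus higher and 2 were lower than in controls under bortezomib. Over all genes tested, 12.5% were higher and 11% were lower in the Lmx1b H77L/lox line, and 15.1% and 12.4% in the Lmx1b C118F/lox line. The groups did not overlap for 2 members in each line, as for 12.1% and 15.7% of all genes. The plot of log2 fold changes against controls shows these 4 comparisons for each member. The DMSO and the bortezomib comparisons use different mice, whereas the lines share their control mice within a treatment.

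**Figure D2:**
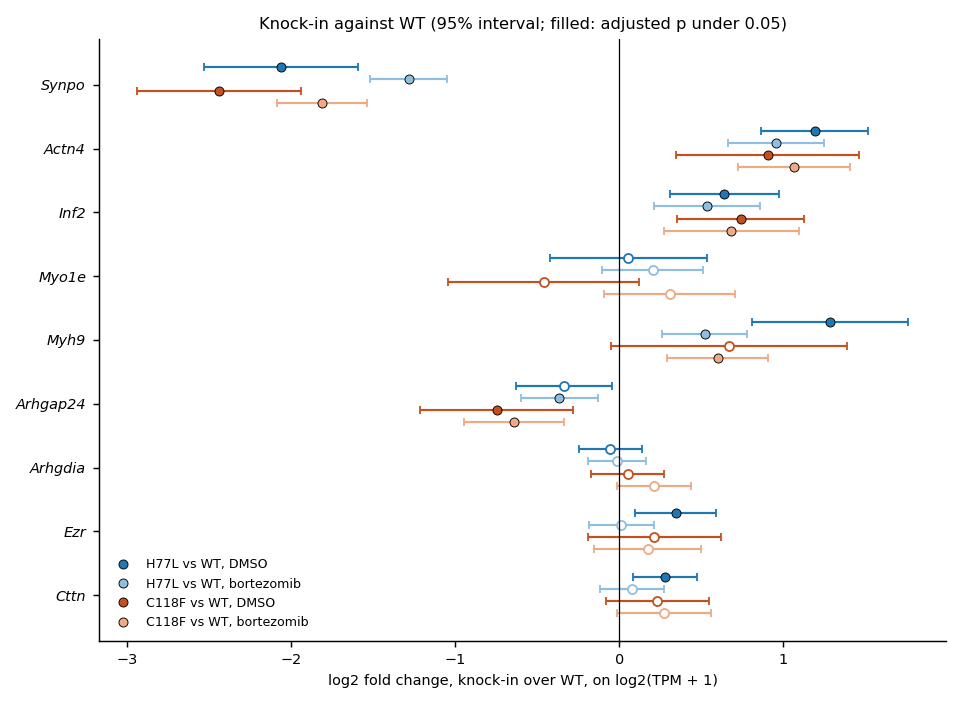
Log2 fold change (x axis, log2(TPM + 1) scale) of knock-in over control mice for each gene (y axis), in both lines and under both treatments; bars are 95% intervals, and filled points have an adjusted p under 0.05. Synpo lies between -2.44 and -1.28, Actn4 between 0.90 and 1.19, and the intervals of Arhgdia and Myo1e include 0 in all 4 comparisons.

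The question whether bortezomib moved these genes within a genotype was examined with the treated and untreated mice of that genotype. None of the 9 members passed in any genotype. In controls 0% of 10659 genes passed, while 923 had an unadjusted p under 0.05. In Lmx1b H77L/lox mice 1.16% of 10813 genes passed, with 2161 at an unadjusted p under 0.05 (limma). In the Lmx1b C118F/lox line 0% of 10814 genes passed, with 634 at such a p. An unadjusted p under 0.05 was reached by 3, 2 and 1 members in controls, Lmx1b H77L/lox mice and Lmx1b C118F/lox mice, respectively. Over all genes tested, the shares at such a p were 8.66%, 20% and 5.86%. The voom method on recovered reads called no member in any genotype, and called 0, 73 and 0 genes.

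Synpo had the lowest p among the members in Lmx1b H77L/lox mice. Its values lay between 286 and 805 TPM under DMSO and between 788 and 1152 TPM under bortezomib, and only the highest DMSO-treated mouse exceeded the lowest bortezomib-treated mouse. The log2 difference of 0.66 (SE 0.20, 95% interval 0.24 to 1.08, adjusted p = 0.0916) did not pass. In Lmx1b C118F/lox mice the log2 difference was 0.51 (95% interval, -0.01 to 1.02, adjusted p = 0.813), and in controls it was -0.12 (95% interval, -0.43 to 0.20, adjusted p = 0.809). The difference between the response of Lmx1b H77L/lox mice and that of controls, 0.78 (SE 0.26, adjusted p = 0.124), did not pass either. Even with bortezomib, the highest knock-in mouse (1152 TPM) remained below the lowest control of either treatment.

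Myo1e had the largest log2 difference after bortezomib, 0.88 (SE 0.29, 95% interval 0.26 to 1.496, adjusted p = 0.784) in the Lmx1b C118F/lox line. The DMSO-treated mice of this line had 226 to 660 TPM and the bortezomib-treated mice had 602, 604, 959, 974 and 470 TPM, with overlap. The value without DMSO-treated mouse 1 was 0.73. In Lmx1b H77L/lox mice and controls the log2 differences of Myo1e were 0.26 and 0.11.

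Myh9 pointed in different directions. Its log2 difference was -0.28 (95% interval, -0.52 to -0.03, adjusted p = 0.207) in Lmx1b H77L/lox mice, 0.49 (95% interval, 0.02 to 0.96, adjusted p = 0.573) in controls and 0.42 (95% interval, -0.25 to 1.09, adjusted p = 0.82) in the Lmx1b C118F/lox line. The response of Lmx1b H77L/lox mice minus that of controls was -0.76 (SE 0.27, adjusted p = 0.138). Without control mouse 1, which held the lowest Myh9 value, the log2 difference in controls was 0.27. In the Lmx1b C118F/lox line it was 0.16 without DMSO-treated mouse 1, again the lowest value.

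Ezr and Arhgap24 had log2 differences of 0.30 and 0.27 in controls, with unadjusted p-values of 0.0329 and 0.0473 from limma and adjusted p-values of 0.572 and 0.573. In the knock-in lines neither gene came closer to the threshold than an adjusted p of 0.313. For Arhgdia the intervals were narrow, from -0.30 to 0.11 in controls and from -0.21 to 0.10 in Lmx1b H77L/lox mice. The plot of bortezomib responses shows the width of the intervals, which are widest in the Lmx1b C118F/lox line for 8 of 9 members.

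**Figure D3:**
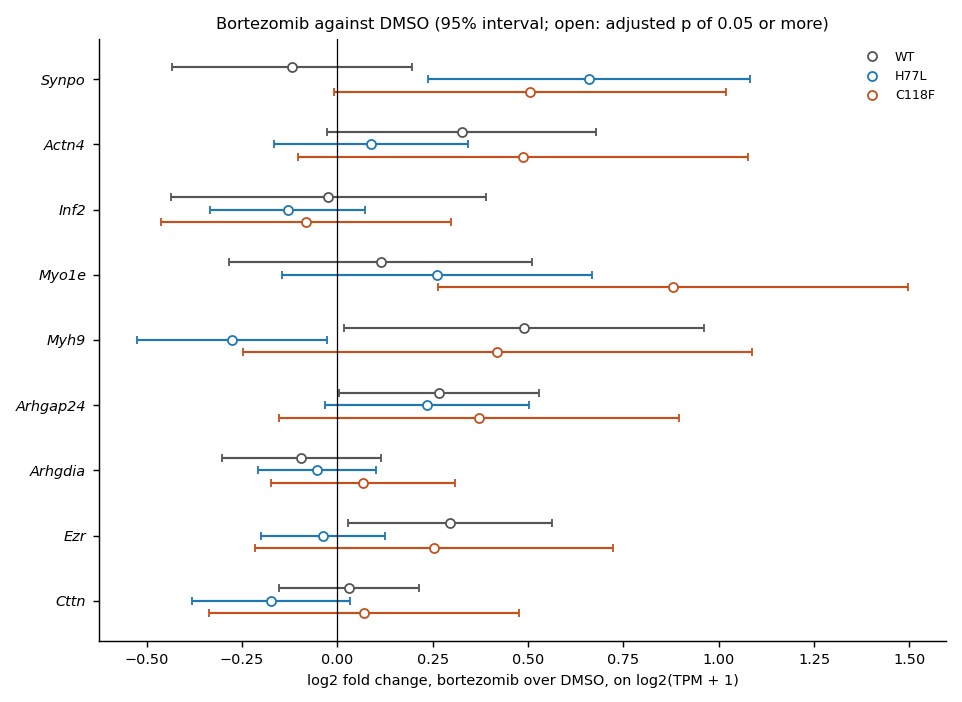
Log2 fold change (x axis, log2(TPM + 1) scale) of bortezomib- over DMSO-treated mice for each gene (y axis) in the 3 genotypes; bars are 95% intervals, and all points are open because none reached an adjusted p under 0.05. Synpo is at 0.66 in Lmx1b H77L/lox, 0.51 in Lmx1b C118F/lox and -0.12 in control mice.

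The tests of the difference in response found no member in any pair of genotypes. Of 11163 genes tested for Lmx1b H77L/lox mice minus controls, 11197 for Lmx1b C118F/lox mice minus controls and 11046 for Lmx1b H77L/lox minus Lmx1b C118F/lox mice, 0% passed in each case, and 2037, 560 and 840 genes had an unadjusted p under 0.05 (limma). Among the members, 3, 2 and 0 had such a p. The voom method called 0 genes in each of these comparisons.

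The lines were also compared with each other. Under DMSO, no member and 0% of 10809 genes passed between the lines, with 416 genes and 1 member (Myh9, log2 difference -0.62) at an unadjusted p under 0.05 (limma), and voom called 0 genes. The difference for Myh9 was -0.35 without mouse 1 of the Lmx1b C118F/lox group. Under bortezomib 1 of 9 members passed, as did 0.972% of 10803 genes. It was Synpo, whose level was lower in the Lmx1b C118F/lox line by a log2 difference of -0.53 (SE 0.12, adjusted p = 0.0468). The ranges overlapped, since the highest Lmx1b C118F/lox mouse (836 TPM) exceeded the lowest Lmx1b H77L/lox mouse (788 TPM). This call did not survive most alternatives, among them another pseudocount and another scaling.

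Several members have a close relative that is also made in podocytes, and the ratio of both within a mouse does not depend on scaling between mice. Ratios were taken of TPM on a log2 scale for Actn1 to Actn4, Myh10 to Myh9, Msn to Ezr and Rdx to Ezr, and tested by exact permutation of mice (two-sided) in 7 comparisons each, with p-values adjusted over these 28 tests. Arhgdib, the relative of Arhgdia in blood cells, was listed at 0 in at least 1 mouse of every group and was left out, and its highest value was 9.12 TPM.

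Moesin (Msn), like ezrin a linker between actin and the membrane, gained on Ezr in both lines. It stood at 177 ± 9.48 TPM (n = 6) in DMSO-treated controls, 490 ± 167 TPM in Lmx1b H77L/lox mice and 449 ± 68.1 TPM in the Lmx1b C118F/lox line, or at a median of 16.5%, 32.05% and 34.4% of Ezr. The log2 ratio of Msn to Ezr was higher by 1.07 in Lmx1b H77L/lox mice and by 1.12 in the Lmx1b C118F/lox line, both without overlap (exact permutation p = 0.00216, the smallest that 6 against 6 mice allow, adjusted p = 0.0121). The highest log2 ratios were -0.69 in mouse 6 of the Lmx1b H77L/lox group and -0.44 in mouse 1 of the Lmx1b C118F/lox group. With single mice left out, the differences were at least 0.91 and 0.92, respectively. Under bortezomib the differences were 0.79 (exact p = 0.00216, adjusted p = 0.0121) and 0.76 (exact p = 0.00866, adjusted p = 0.0269). The ratio was also lower after bortezomib within Lmx1b H77L/lox mice, by a log2 difference of -0.46 (exact p = 0.0108, adjusted p = 0.0303), a call that ended when any 1 of 7 mice was left out (adjusted p of 0.0505 to 0.0551). Without DMSO-treated mouse 6 this difference was -0.30. Radixin (Rdx), the third relative, showed no such rise, with log2 ratio differences of -0.21 (exact p = 0.0801, adjusted p = 0.149) and -0.32 (exact p = 0.0303, adjusted p = 0.0606) under DMSO. The latter passed the exact test at -0.40 (adjusted p = 0.0242) without mouse 1 of the Lmx1b C118F/lox group and at -0.38 (adjusted p = 0.0441) without control mouse 6.

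Alpha-actinin-1 (Actn1) rose further than Actn4. Its mean was 55.3 ± 14.5 TPM in DMSO-treated controls, 185 ± 49.4 TPM in Lmx1b H77L/lox mice and 156 ± 38.4 TPM in the Lmx1b C118F/lox line, yet it remained far below Actn4, at a median of 6.49%, 8.76% and 10.01% of its TPM. The log2 ratio was higher by 0.56 (exact p = 0.00433, adjusted p = 0.0173) and by 0.5957 (exact p = 0.0173, adjusted p = 0.0404), and under bortezomib by 0.31 (exact p = 0.00216, adjusted p = 0.0121) and by 0.41 (exact p = 0.00866, adjusted p = 0.0269). The call for Actn1 to Actn4 in DMSO-treated Lmx1b C118F/lox mice ended when any 1 of 11 of the 12 mice was left out, among them mouse 1 of either group (adjusted p of 0.0606 to 0.0808). Non-muscle myosin IIB (Myh10) rose from 3.51 ± 1.92 TPM in controls to 20.4 ± 5.84 TPM in Lmx1b H77L/lox mice and 12.7 ± 5.95 TPM in the Lmx1b C118F/lox line. Its log2 ratio to Myh9 was higher by 1.43 (exact p = 0.0152, adjusted p = 0.0386) in Lmx1b H77L/lox mice, whereas the 1.28 in the Lmx1b C118F/lox line (exact p = 0.0303, adjusted p = 0.0606) did not pass. The former call ended when any 1 of 11 of the 12 mice, all but control mouse 1, was left out (adjusted p of 0.0606 to 0.0707). Control mouse 1 had a log2 ratio of -3.52 against -4.93 or less in the other controls, and without it the difference in the Lmx1b C118F/lox line was 1.65 (adjusted p = 0.0152). Under bortezomib the differences of 1.33 (exact p = 0.00216) and 1.101 (exact p = 0.00433) came without overlap. In all, 12 of 28 tests passed, 11 of them between genotypes.

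**Figure D4:**
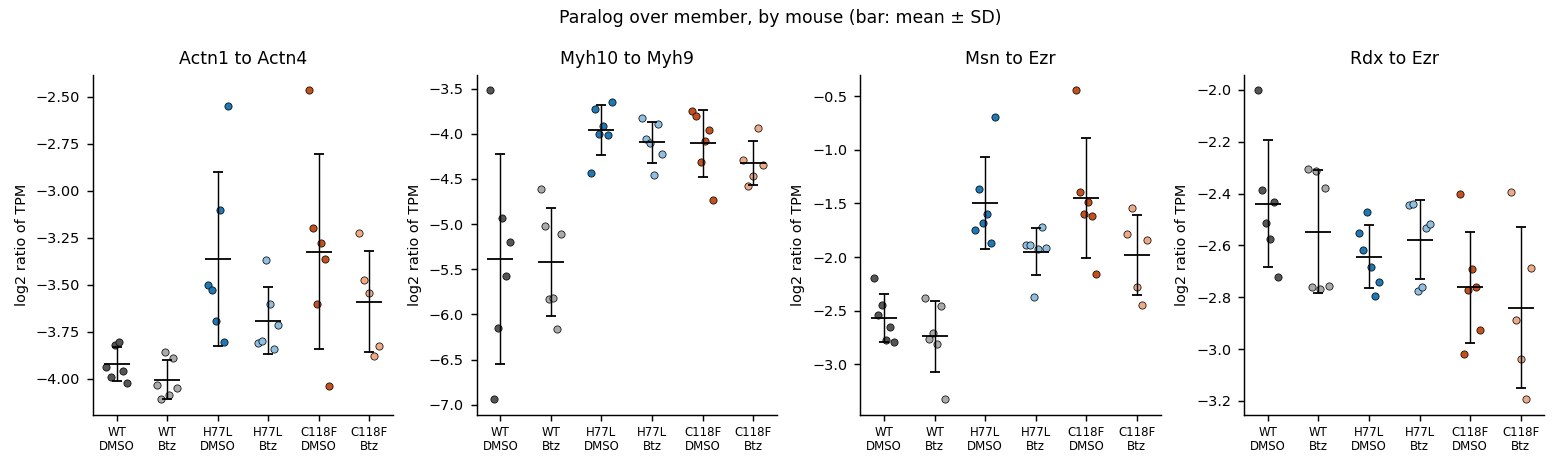
Log2 ratio of TPM (y axis) of a relative to a member in each mouse, by genotype and treatment (x axis); points are mice and bars the mean ± SD. Msn to Ezr rises from a mean of -2.57 in DMSO-treated controls to -1.495 in Lmx1b H77L/lox and -1.45 in the Lmx1b C118F/lox line, while the group means of Rdx to Ezr lie between -2.84 and -2.44.

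The wider actin machinery of the DMSO-treated mice is described by 7 lists of genes without the members themselves. Actinins, synaptopodins and other bundlers had 10 of 16 genes higher and 2 lower in Lmx1b H77L/lox mice and 9 of 15 higher and 1 lower in the Lmx1b C118F/lox line. Synpo2, a muscle relative of Synpo, rose by 2.25 and 2.31 on the log2 scale, from a mean of 0.43 TPM to 5.78 and 5.93 TPM. Pdlim7, a PDZ and LIM protein of stress fibres, rose by 1.63 and 1.86, and the scaffold gene Magi2 fell, with log2 fold changes of -1.52 and -1.82. Actn1, described above, rose by 1.73 and 1.48. The median log2 fold change of this list was 0.73 and 0.63.

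Of the myosins and their light chains, 12 of 19 were higher and 3 were lower in the Lmx1b H77L/lox line, and 6 of 18 were higher and 4 lower in the Lmx1b C118F/lox line, with medians of 0.55 and 0.32. Myl9, a light chain of contractile myosin II, rose from 30.8 to 243 TPM (log2 fold change 3.14) and to 198 TPM (2.76), while the kinase Mylk3 fell (-1.70 and -2.46). Myh10 rose by 2.32 and 1.61, and Myo5a, an unconventional motor, by 1.204 and 1.116 from a low level of 0.83 ± 1.06 TPM in controls. Among formins and Ena/VASP proteins 6 of 10 and 5 of 9 were higher and 1 was lower in each line, with medians of 0.52 and 0.50. Fmnl3 rose by 1.85 and 1.597, Vasp by 0.79 and 0.86, Daam1 by 0.65 and 0.60, and Diaph1 by 0.52 and 0.47, so that Inf2 with 0.64 and 0.74 lay among them.

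The Arp2/3 complex and partners of cortactin had 12 of 31 genes higher and 4 lower in Lmx1b H77L/lox mice and 8 of 31 higher and 2 lower in the Lmx1b C118F/lox line, with medians of 0.21 and 0.07. Wasf1, which encodes WAVE1, rose by 1.32 and 1.04, from a mean of 2.15 TPM to 6.59 and 5.35 TPM. Washc5 of the WASH complex rose by 1.28 and 1.03. Wasl, which activates Arp2/3, rose by 0.86 and 0.79, and the Arp2/3 subunit gene Arpc1b by 0.72 and 0.84. Among proteins of actin turnover and capping, 14 of 30 and 11 of 30 were higher and 3 were lower in each line. The capping protein gene Capg rose by 2.66 and 3.13, from 5.57 ± 6.45 TPM in controls to 33.1 ± 22.5 and 43.1 ± 15.8 TPM. Cap2 rose by 2.89 and 2.57, while Coro2b, a coronin, fell (-0.98 and -1.04). Svil, the gene of supervillin, rose by 1.19 and 0.82. The medians of this list were 0.28 and 0.24.

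Ezrin, radixin and moesin with their membrane partners were mixed, with 3 of 11 higher and 3 lower in Lmx1b H77L/lox mice and 3 of 11 higher and 2 lower in the Lmx1b C118F/lox line. Here Cd44 rose by 2.02 and 2.80, from 1.01 ± 1.59 TPM in controls to 7.90 ± 7.90 and 13.7 ± 9.09 TPM. Podxl, the gene of podocalyxin, fell (-1.08 and -1.604). Msn rose by 1.41 and 1.33, and Clic4, a chloride intracellular channel gene, by 1.03 and 1.24.

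Of other glomerular disease genes, 10 of 47 were higher and 11 lower in Lmx1b H77L/lox mice and 4 of 46 higher and 10 lower in the Lmx1b C118F/lox line, with medians of 0.02 and -0.06. Ptpro, a phosphatase of foot processes, fell with log2 fold changes of -1.15 and -1.47, and Magi2 and Podxl, with the values above, belong to this list as well. Against the 22.4% higher and 22.4% lower over all genes in Lmx1b H77L/lox mice, the share of higher genes lay between 27.3% and 63.2% in the 6 actin lists and was 21.3% in the disease list. In the Lmx1b C118F/lox line, where 13.7% of all genes tested rose and 16.6% fell, it lay between 25.8% and 60% in the actin lists and was 8.70% in the disease list. No test was made on the lists, which were put together with earlier results of these data known. Of the summed markers given above, those of mesangial cells and smooth muscle were higher in the knock-in mice. Those of parietal epithelium had higher medians and those of tubules lower medians, and the part of these markers in the counts was not tested.

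**Figure D5:**
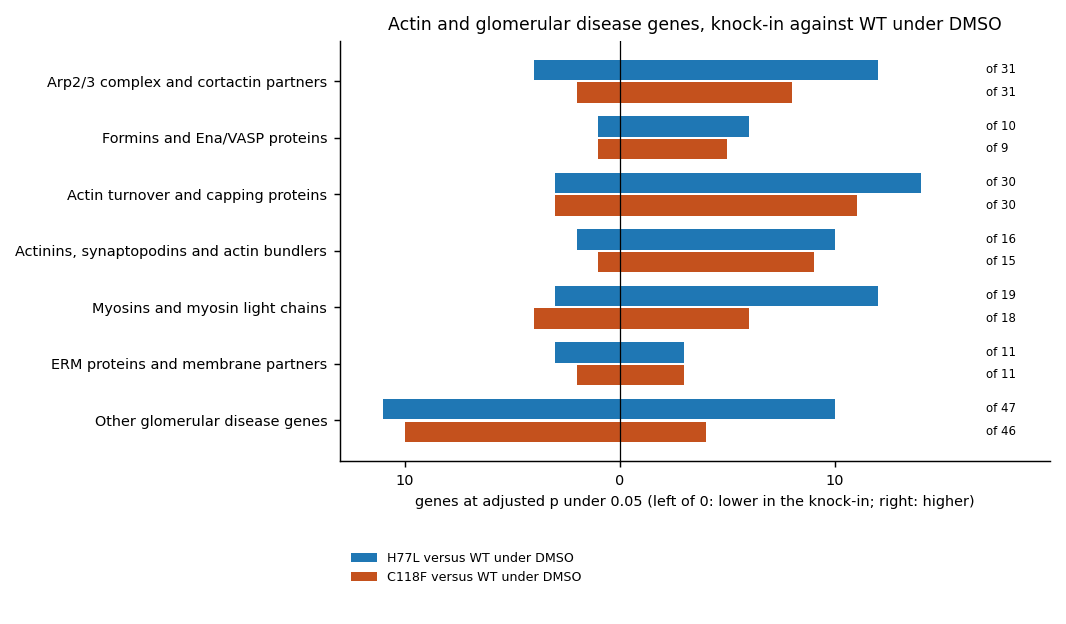
Number of genes (x axis; left of 0 lower, right of 0 higher, at an adjusted p under 0.05) in each of 7 lists (y axis) for each DMSO-treated knock-in line against controls; the numbers at the right give the genes tested. Rises outnumber falls in 5 of the 6 actin lists in both lines, with 10 higher and 2 lower among bundlers in Lmx1b H77L/lox mice.

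Genes whose log2(TPM + 1) followed a member most closely over the 35 mice were picked as the top 3 by Pearson's r among 11306 genes. The mice of 6 groups differ in genotype, depth and marker content, so the r values are descriptions. Synpo was followed by Ak1 (r = 0.97), Lyrm9 (0.96) and Pth1r (0.96), whose medians were also lower in the knock-in groups. After subtraction of the group means these r values were 0.73, 0.62 and 0.67. Myh9 was followed by Tln1, the gene of talin-1, with r = 0.96 and 0.94 after subtraction of the group means, and by Aebp1 (0.93) and Piezo1 (0.91).

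Actn4 was followed by Arhgef17 (r = 0.95), by Phldb2 (0.95) and by Jup (0.94), the gene of plakoglobin. Arhgap24 was closest to Podxl (0.89, and 0.91 after subtraction of the group means), Lrrc1 (0.88) and the myosin gene Myo1d (0.88). Myo1e was closest to Npnt (0.89), which encodes nephronectin of the glomerular basement membrane. The closest genes of Ezr were Nolc1, Fyco1 and Ptpn21 (0.86 to 0.87), those of Cttn were Ext1, Ss18 and Ddx27 (0.85 to 0.86), and those of Inf2 were Ets2, Pawr and Lrp10 (0.81 to 0.82). Arhgdia had no gene above 0.71, the value of Nans. Between members, Actn4 and Myh9 were closest, with r = 0.89 over the mice and 0.84 after subtraction of the group means, and Inf2 and Synpo were furthest apart, with r = -0.72 over the mice and 0.01 within groups.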

How the data were processed

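Podocytes of 35 mice were sequenced. According to the methods of the study, the authors made single-end libraries from poly(A) RNA, trimmed adapters with Trim Galore 0.6.7, aligned reads to GRCm39 with STAR, placing reads with several matches at random, and counted reads per gene with featureCounts 1.6.3. How multiply matching reads and strand entered the counts is not given in the sources used here, so the levels of relatives and of overlapping genes are uncertain to that extent. The authors deposited TPM values. Depth is not part of such values. Whole reads (within 0.0001 of a read) were recovered from their steps for all but 1 of 23943 detected genes, with the annotated length for 4473 and a searched length for 19469. Positions come from GENCODE vM39.

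Values were transformed to log2(TPM + 1). A fold change on this scale understates the change of low genes. Genes above 1 TPM in every mouse of at least 1 compared group entered limma 3.58.1, run under R 4.3.3 (lmFit and eBayes with an intensity trend, two-sided) on the mice of the groups compared. P-values were adjusted over all genes tested by the Benjamini-Hochberg method, and genes were called at an adjusted p under 0.05. Every adjusted p for a fold change is from limma. Ratios were tested with exact permutation tests in Python 3.11.15 with scipy 1.17.1. The tests were checked on simulated data. Members and lists were chosen with earlier results of these data known. All 9 members are reported. Some results that need withheld items are not reported here. From each list, genes called in both DMSO-treated lines in the same direction were named, up to 4 by mean absolute log2 fold change, besides genes used in ratios. Alternatives covered the pseudocount, filter, scaling, model and each mouse left out, and the exclusion of mouse 1 of the DMSO-treated control and Lmx1b C118F/lox groups, voom on recovered reads and the cutoffs of the study were added after the data were seen. No column was left unused. P-values set a difference between groups against the spread between mice.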

Additional observations from a re-analysis of the deposited data

Results flagged for a closer look

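In 54 groups of values (9 genes in 6 groups of mice), 3 held a mouse far from the others by Dixon's criterion, and chance alone gives about 1 in 20. Synpo reached 836 TPM in mouse 3 of the bortezomib-treated Lmx1b C118F/lox mice, whereas the other 4 had 578 to 637 TPM. Mouse 6 of the DMSO-treated Lmx1b H77L/lox mice had the lowest Arhgap24 value, 209 TPM, and the highest Cttn value, 203 TPM, of its group. The same mouse had the lowest Synpo value (286 TPM), the lowest summed podocyte markers (7605 TPM) and the highest summed parietal epithelial markers (370 TPM) of its group. Whether these markers had a part in the values was not tested.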

How the results depend on the processing

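Of the members called against controls, Synpo kept its direction and its call in all 4 comparisons under all alternatives that keep the threshold of an adjusted p under 0.05. With a log2 fold change beyond 1 required as well, the number called went from 6 to 3 in DMSO-treated Lmx1b H77L/lox mice, from 4 to 1 in DMSO-treated Lmx1b C118F/lox mice, from 5 to 1 in bortezomib-treated Lmx1b H77L/lox mice, from 5 to 2 in bortezomib-treated Lmx1b C118F/lox mice and from 1 to 0 between the lines under bortezomib. At the cutoffs of the study the numbers against controls were 1, 1, 0 and 0. Without a filter on low values 2 members were called in DMSO-treated Lmx1b C118F/lox mice, with all 35 mice in one fit 3 in bortezomib-treated Lmx1b H77L/lox mice, and with the number in the sample title as a covariate 3 in bortezomib-treated Lmx1b C118F/lox mice. The single call between the lines under bortezomib (Synpo) went to 0 with a pseudocount of 0.1, without a filter, with a mean TPM above 1, with median-of-ratios scaling, with all 35 mice in one fit, without an intensity trend and with the number in the sample title as a covariate. Of the ratios, 0 of 28 passed when medians replaced means in the permutation test. With medians, several regroupings of the same mice give an equal difference, so the smallest exact p is larger than with means. Even Msn to Ezr, without overlap in either DMSO-treated line, reached only an adjusted p of 0.0519 in this permutation test. This setting therefore cannot decide whether ratios without overlap hold. When single mice were left out, the members called numbered 5 to 7 and 4 to 5 under DMSO, 4 to 5 and 5 to 6 under bortezomib and 0 to 1 between the lines under bortezomib, and 10 to 12 ratios passed. The cause of the other changes in the counts was not tested. No called value changed sign, and the counts of 0 stayed at 0. No paired analysis was possible because the labels give no pairing between mice of different groups.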
